A study of Mus musculus with 7 samples.

Results

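The genes described here are the cytoplasmic ribosomal protein genes of the mouse, taken as the protein-coding genes of mm10 whose symbol starts with Rpl or Rps and a digit, without the kinases of the Rps6k series. The rule found 87 genes of 21887 protein-coding genes. Of these, 73 are the main genes of a cytoplasmic ribosomal protein, 43 for the large and 30 for the small subunit. The other 14 are paralogs, retrocopies (copies of a spliced transcript pasted back into the genome) or genes named after a ribosomal protein: Rpl3l, Rpl7l1, Rpl10l, Rpl22l1, Rpl36al, Rpl39l, Rps27l, Rps27rt, Rpl32l, Rpl37rt, Rps23rg1, Rpl34-ps1, Rpl31-ps12 and Rps19bp1, which encodes a binding partner of Rps19.

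Open chromatin was mapped by ATAC-seq, a method in which a transposase cuts and tags accessible DNA, in the RAW264.7 line of mouse macrophages, for which the labels give bone marrow as the source. RANKL, the cytokine that starts osteoclast formation, was given at 50 ng/ml. I-BET, an inhibitor of the BET proteins that bind acetylated histones, was given at 500 nM. The groups were untreated cells (2 libraries), RANKL (2 libraries), RANKL with I-BET (2 libraries) and I-BET without RANKL (1 library, numbered replicate 2), with treatments lasting 4 h and 50000 cells per library. Untreated libraries are listed at 0 h and all treated ones at 4 h, so a treatment cannot be told apart from time in comparisons with untreated cells. All groups share the 1 cell line. The labels do not say that replicates were separate cultures, so the spread between libraries may be technical.

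Ribosomal proteins join ribosomal RNA in the nucleolus to build the small and the large subunit, and dividing cells need them in equal amounts. Their promoters are short CpG islands without a strong TATA box, often with sites for ETS factors such as GABPA and for YY1. Transcription starts in a run of pyrimidines, so that the mRNA begins with a 5' terminal oligopyrimidine (TOP) tract, through which mTOR signalling controls its translation. Many of the genes carry small nucleolar RNAs in their introns, and retrocopies of them are scattered through the genome.

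The promoters that the results turn on are shown first, as RefSeq gives them on GRCm38.p6, read along the gene from 60 bases before the annotated start to 30 bases from it. Capitals mark the letters of an ETS site (CCGGAAG), a YY1 site (AAGATGGC), a cyclic AMP response element (CRE, TGACGTCA) or a TATA box (TATAAA) on either strand, or the TOP core (CTTTCC) on the gene's strand. Rps21, Rpl15 and Rps19 had the strongest chromatin peaks among members with an entry, and are shown for that reason, at chr2:180257319-180257408 (plus strand), chr14:18270957-18271046 (minus strand) and chr7:24884532-24884621 (plus strand).
Rps21: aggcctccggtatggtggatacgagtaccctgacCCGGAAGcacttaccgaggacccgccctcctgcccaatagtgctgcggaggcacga
Rpl15: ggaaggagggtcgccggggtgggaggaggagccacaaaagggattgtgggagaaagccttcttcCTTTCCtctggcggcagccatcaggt
Rps19: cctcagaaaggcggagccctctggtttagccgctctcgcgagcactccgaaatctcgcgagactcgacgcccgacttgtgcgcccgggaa

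Rpl37a, Rps4x and Rpl6 had the weakest peaks among the main genes. Their starts lie at chr1:72711200-72711289 (plus strand), chrX:102189362-102189451 (minus strand) and chr5:121204441-121204530 (plus strand).
Rpl37a: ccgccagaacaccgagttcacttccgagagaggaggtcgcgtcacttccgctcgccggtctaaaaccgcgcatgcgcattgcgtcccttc
Rps4x: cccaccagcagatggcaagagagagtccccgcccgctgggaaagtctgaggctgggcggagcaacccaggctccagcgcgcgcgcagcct
Rpl6: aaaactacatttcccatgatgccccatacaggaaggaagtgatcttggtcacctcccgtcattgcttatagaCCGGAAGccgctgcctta

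Rpl38 is shown because it holds an ETS site and a TOP core at its start, at chr11:114668520-114668609 (plus strand). Rpl10l and Rpl39l, paralogs known from the testis, are shown because they had no peak or few, at chr12:66284372-66284461 (minus strand) and chr16:10170168-10170257 (plus strand).
Rpl38: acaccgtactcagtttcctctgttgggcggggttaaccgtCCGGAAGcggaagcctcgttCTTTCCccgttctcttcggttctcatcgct
Rpl10l: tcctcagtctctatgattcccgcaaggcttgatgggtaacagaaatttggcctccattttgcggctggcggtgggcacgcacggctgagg
Rpl39l: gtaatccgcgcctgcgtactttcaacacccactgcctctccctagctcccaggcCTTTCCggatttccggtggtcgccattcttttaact

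The pair of Rps27 and its retrocopy Rps27rt shows what a copy of the transcript takes along. The windows are chr3:90213619-90213708 and chr9:114982710-114982799, both on the minus strand.
Rps27: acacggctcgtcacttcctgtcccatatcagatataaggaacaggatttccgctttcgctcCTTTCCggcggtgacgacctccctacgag
Rps27rt: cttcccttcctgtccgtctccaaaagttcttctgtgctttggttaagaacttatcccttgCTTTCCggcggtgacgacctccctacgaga

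Both windows hold a shared stretch of 29 bases that begins at or 1 base after the start, TOP core included. Rps27rt lies inside Osbpl10. In all 7 libraries its strongest peak lay over the boundary of Osbpl10 at 114978485 on chromosome 9 and in none over its own start.

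Of the 87 members, 67 matched an entry of the promoter table (250 bases before to 50 after the start), 54 of them main genes. Matches were counted for 9 motifs on both strands of these 300 bases, with the most upstream start taken where a gene had several. None of the motifs contains another, but matches to different motifs can share bases. ETS sites were in 21 of 54 main promoters (38.9%), against 11.9% of 17492 promoters of all genes. The YY1 site was in 9.26% of main promoters against 3.21%, and the CRE in 9.26% against 2.33%. The TOP core was in 44.4% against 25.8% on both strands, and in 33.3% against 13.8% on the gene's strand. A run of at least 8 pyrimidines within 30 bases of the start was found in 51.9% of main promoters and in 22.0% of all promoters.

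Other motifs were closer to the share in all promoters or below it. The Sp1 site GGGCGG was in 57.4% against 46.3%, and the E-box CACGTG, bound by Myc among others, in 9.26% against 7.91%. The NF-Y site CCAAT was in 29.6% against 39.2%, and the TATA box in 9.26% against 13.3%. AP-1 is the Fos and Jun dimer that RANKL is known to induce, and its site TGANTCA was in 1 main promoter (1.85%) against 7.03% of all. Median GC content differed little (57.0% against 56.3%), but the ratio of observed to expected CpG was 0.873 against 0.577. A match is a description of these letters and not a site of binding.

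**Figure D1:**
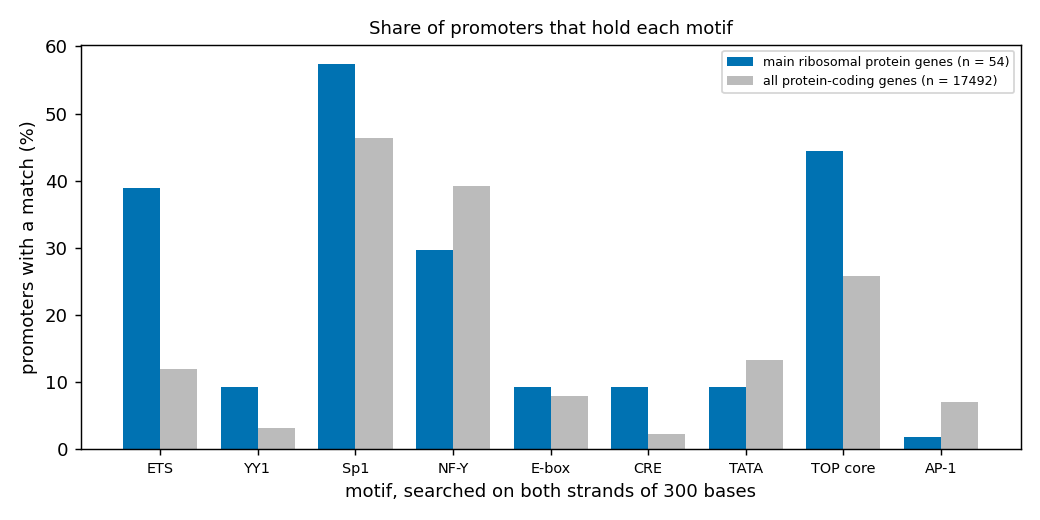
Share of promoters (%, vertical axis) that hold each of 9 motifs on either strand of 300 bases, for 54 main ribosomal protein genes (blue bars) and 17492 protein-coding genes (grey bars). ETS sites stand at 38.9% against 11.9% and the TOP core at 44.4% against 25.8%, while NF-Y, TATA and AP-1 are less frequent than in all promoters.

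The 7 libraries differed in ways the treatments do not account for. Lists held 117175 to 166369 peaks, and reads per library are not given. The background pileup implied by the deposited folds, used here in place of depth, was 2.55 and 1.81 in untreated replicates 1 and 2, 4.12 and 2.04 with RANKL, 3.92 and 13.8 with RANKL and I-BET, and 1.11 with I-BET alone. RANKL+I-BET replicate 2 stands apart with its high pileup and the longest list, and the libraries numbered 1 differed from those numbered 2, as described with the ranks. Of 10 macrophage markers, Csf1r, Spi1 and Adgre1 among them, 10 had a peak in every library, with median ranks of 55.1 to 78.7 on the scale explained below. For the markers of B and T lymphocytes, fibroblasts and osteoblasts, erythroid cells and neutrophils, the median ranks were 17.8 to 57.5, and at most 83.3% of a list had a peak in every library.

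A gene was counted as open in a library when a peak had its midpoint within 5 kb of the gene body. In untreated replicates 1 and 2, 94.3% and 95.4% of the members were open. The shares were 95.4% and 96.6% with RANKL, 93.1% and 96.6% with RANKL and I-BET, and 95.4% with I-BET alone. Every library thus had 81 to 84 of the 87 members open, while 76.0% to 79.9% of all protein-coding genes were. All 73 main genes were open in all 7 libraries, which held for 71.1% of all genes. Members differed only among the paralogs, retrocopies and other genes, of which 8 to 11 were open per library.

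Of the 87 members, 3 had no peak in any library, against 14.6% of all genes. They were Rpl10l, Rpl32l and Rpl31-ps12, whose nearest peaks lay at least 6302.5, 11945 and 9025.5 bp from the gene body. Rpl32l lies inside Map7 and Rpl31-ps12 inside Spag6l. Within the window the farthest peak used was that of Rpl39l, at 4363.5 to 4401.5 bp.

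Rpl39l, the paralog of Rpl39, was 1 of 3 members with a peak in some libraries only. Its peak at chr16:10165561-10166049, upstream of the gene, was called in RANKL replicates 1 and 2 and in RANKL+I-BET replicate 2, with widths of 204, 428 and 489 bp. The deposited -log10 p values were 6.43, 14.03 and 31.2. No peak was called in either untreated library, in RANKL+I-BET replicate 1 or in the I-BET library. Rpl39l was the 1 member with a peak in both RANKL and neither untreated library, a pattern found for 0.58% of all genes. Peaks found with RANKL and I-BET in replicates 1 and 2 but in neither untreated library, or in neither RANKL library, were seen at 0 members, against 0.548% and 0.334% of all genes. Both RANKL libraries also had a higher implied pileup than the untreated library of the same number, and the part of this in the call was not tested.

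The retrocopy Rps23rg1 had a peak in the 4 libraries numbered 2 and in no library numbered 1. Its strongest peak was not the same in all of them. In untreated and I-BET replicate 2 it started at 3571497 and 3571580 on chromosome 8 and was 196 and 178 bp wide. In RANKL and RANKL+I-BET replicate 2 it started at 3569812 and 3569743 and was 350 and 460 bp wide. Its -log10 p was between 3.79 and 24.0. The pseudogene-derived Rpl34-ps1 had a peak in all libraries but RANKL+I-BET replicate 1, with widths of 150 to 536 bp. These are widths of different peaks. The strongest started at 71129107 and 71129089 on chromosome 6 in untreated replicate 1 and I-BET replicate 2. In the other libraries with a peak it started at 71125088 to 71125166. Whether any peak was called followed the replicate number at Rps23rg1 and 1 library at Rpl34-ps1. Within the libraries numbered 2, the peak used at Rps23rg1 differed between those with and without RANKL, with 1 library for each treatment.

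Among the 54 main genes with an entry, 54 had a peak over an annotated start in every library. Of the 67 members with an entry, 59 did so in every library, against 49.2% of all 17492 genes. At main genes with 1 annotated start, the summit of the peak there lay at a median of -16.5 to 39.5 bp from the start, by library, where negative values are before it. The median extent was 557.5 to 943.5 bp before and 581.5 to 1597.5 bp after the start. Rps21 is an example, with a start at 180257379 on chromosome 2 and a strongest peak from 180256023 to 180257836 in untreated replicate 1 and from 180255443 to 180258254 in RANKL+I-BET replicate 2.

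The strongest peak of a gene was not always at its own start. It was there in all libraries for 36 of the 54 main genes with an entry and in no library for 4. For 50 of the 87 members, the strongest peak was also that of a neighbouring gene in some library, and 14 members overlap another gene. Rps21 shared its peak with Cables2 and Rpl15 with Nkiras1, and the values of such pairs cannot be told apart. At some members the libraries also differed in which peak was strongest, among them Rpl3, Rpl35, Rpl36, Rpl7l1, Rpl7a, Rps18, Rpl18, Rpl19, Rps9 and Rps24. A difference in width or rank at such a gene can be between different peaks.

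Strength was described by the rank of the peak with the largest -log10 p near a gene, as a percentile among all protein-coding genes of that library (100 is the strongest, 50 the median gene). The median rank of the 87 members was 77.1 and 63.5 in untreated replicates 1 and 2, 69.1 and 66.2 with RANKL, 75.4 and 67.1 with RANKL and I-BET, and 67.2 with I-BET alone. The median member's peak was in the top 2.74% to 6.84% of all peaks of its library. Of the members, 65 (59 of them main genes) were above the median gene in all 7 libraries, against 42.8% of all genes. Only 4 members, Rps21, Rpl15, Rps19 and Rpl37, were in the top 10% of genes in every library, a share near the 4.20% of all genes. In single libraries 9 to 16 members were in the top 10%, with 9 in RANKL+I-BET replicate 2 and 14 to 16 in the other 6.

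Rps21, a small-subunit protein, had the highest mean rank, 97.6. Its ranks were 95.6 and 96.9 in the untreated libraries, 98.1 and 97.7 with RANKL, 97.9 and 98.0 with RANKL and I-BET, and 98.7 with I-BET. Rpl15 of the large subunit ranked 94.8 and 95.8, 96.3 and 96.5, 96.9 and 97.4, and 97.5 in the same order. Rps19, the gene most often mutated in Diamond-Blackfan anaemia, ranked 97.4 and 95.6, 95.5 and 94.2, 97.5 and 97.2, and 95.7. No other member with a peak stayed within 4 percentile points over the 7 libraries. The mean ranks of Rpl37 (93.8) and of Rpl13a (93.7), which hosts small nucleolar RNAs, came next, and neighbours in this order did not differ beyond their ranges.

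At the other end of the main genes stood Rpl37a, with ranks of 48.0 and 41.5 untreated, 47.1 and 42.4 with RANKL, 46.1 and 44.0 with RANKL and I-BET, and 39.8 with I-BET. Rps4x, the X-linked small-subunit gene, ranked 52.6 and 45.5, 44.7 and 37.5, 53.3 and 39.5, and 43.6. Rpl6 ranked 51.5 and 45.5, 50.0 and 44.3, 50.1 and 46.2, and 45.1. All 3 were open in each library and had their strongest peak at their own start, but near or below the median gene. The retrocopy Rpl37rt ranked 27.6 to 37.3 and Rpl34-ps1 11.5 to 35.4, where the lower value of Rpl34-ps1 is that of a library without a peak. The retrocopy Rps27rt ranked 43.2 to 54.5, with the peak at Osbpl10.

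Several members with known roles outside or beside the ribosome were in between. Rpl5 and Rpl11, which with 5S RNA bind Mdm2 when ribosome assembly fails, ranked 55.7 to 83.8 and 62.1 to 68.5. Rps6, the substrate of the S6 kinases, ranked 60.1 to 76.2, and Rps3, which also acts in DNA repair, 49.8 to 77.9. Rpl10, X-linked and among the last proteins to join the large subunit, ranked 60.1 to 83.6. Rps27a, which is made as a fusion with ubiquitin, ranked 67.6 to 78.8.

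Rpl22 and its paralog Rpl22l1 ranked alike, 59.0 to 84.5 and 60.7 to 84.6. Among the other paralogs, Rpl36al ranked 72.6 to 88.2, the p53 target Rps27l 63.5 to 82.4 and Rpl7l1 57.0 to 78.6. Rps19bp1, the binding partner of Rps19, ranked 55.9 to 79.4. Rpl3l, the striated-muscle form of Rpl3, ranked 69.1 to 79.3, but its strongest peak was shared with the neighbour Msrb1 and never lay at its own start.

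**Figure D2:**
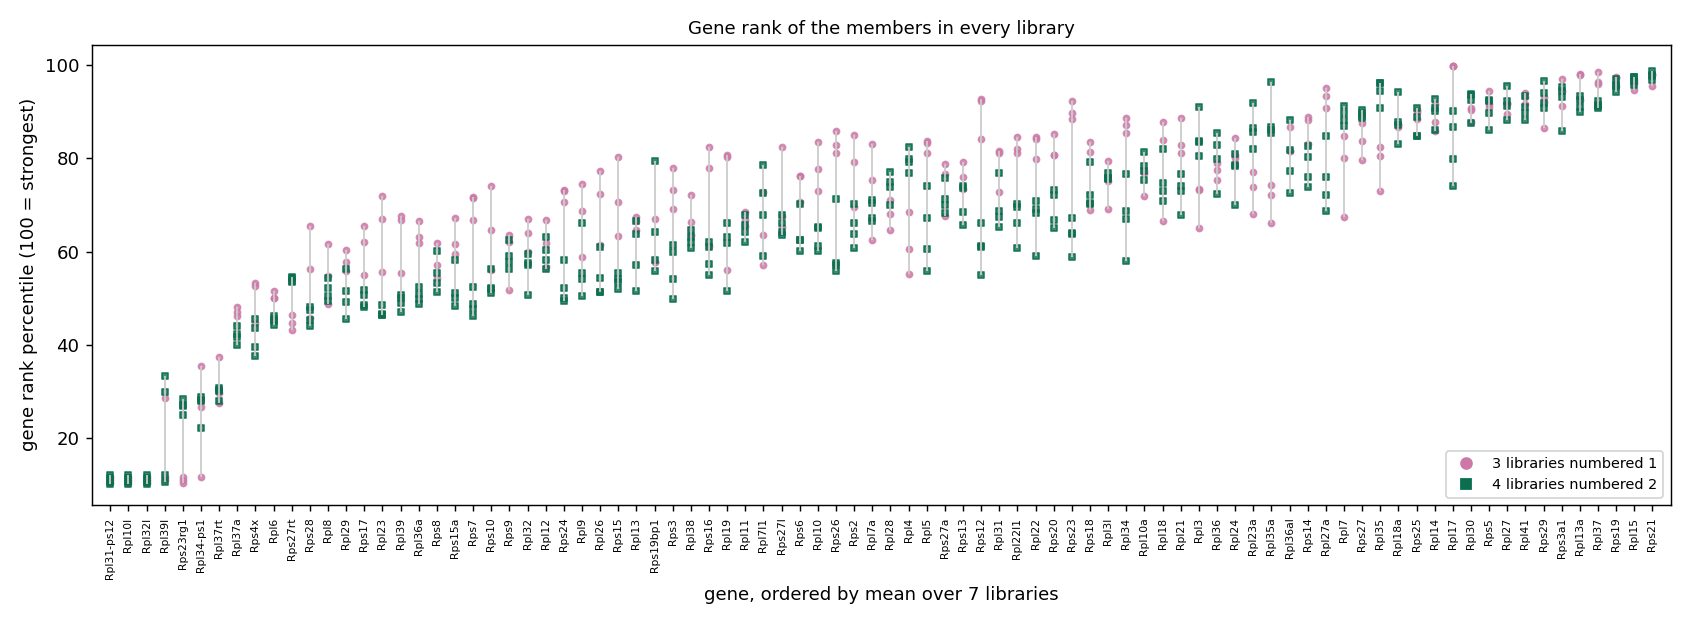
Gene rank percentile (vertical axis, 100 is the strongest) of 86 members in all 7 libraries, ordered along the horizontal axis by their mean. Circles are the 3 libraries numbered 1 and squares the 4 numbered 2, and grey lines join the lowest and highest value, from Rpl10l, Rpl32l and Rpl31-ps12, without a peak, to Rps21 at 95.6 to 98.7.

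Ranks differed most between libraries with different replicate numbers. The members' median was 69.1 to 77.1 in the 3 libraries numbered 1 and 63.5 to 67.2 in the 4 numbered 2, so these ranges did not overlap, while those of the treatments did. Of 81 members with a peak in all libraries, 28 ranked higher in every library numbered 1 than in any numbered 2 (34.6%, against 18% of all genes), and 8 ranked lower (9.88%, against 16.6%). Rps12 ranked 84.2 to 92.7 in libraries numbered 1 and 54.97 to 66.2 in those numbered 2, and Rps23 88.6 to 92.3 and 58.9 to 67.2. Rpl4 went the other way, with 55.1 to 68.6 in libraries numbered 1 and 76.9 to 82.4 in those numbered 2, as did Rpl35a with 66.1 to 74.4 and 85.5 to 96.3. The strongest peaks of Rpl4 and Rpl35a lay over their own starts in no library. They were shared with the neighbours Snapc5 and Lmln. In relative width, 3 of the 81 members were higher in every library numbered 1 (3.70%, against 5.83% of all genes), and 15 were lower (18.5%, against 6.67%). This contrast was chosen after the values had been seen and is given without a test.

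Small-subunit genes showed the wider gap, with a median of 76.4 to 80.6 in libraries numbered 1 and 60.6 to 70.3 in those numbered 2. Large-subunit medians were 72.2 to 77.4 and 69.2 to 76.7, which overlap. The list of 40 translation initiation and elongation factors had 81.4 to 82.2 against 72.4 to 76.8, and 42 genes of ribosome biogenesis 75.8 to 80.7 against 68.2 to 72.7. Macrophage markers had 55.1 to 65.7 in libraries numbered 1 and 69.5 to 78.7 in those numbered 2. The implied pileup did not separate the numbers, with 2.55 to 4.12 in libraries numbered 1 and 1.11 to 13.8 in those numbered 2. What a number stands for is not given in the labels, and its part in the treatment comparisons was not tested beyond the values given within each number.

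**Figure D3:**
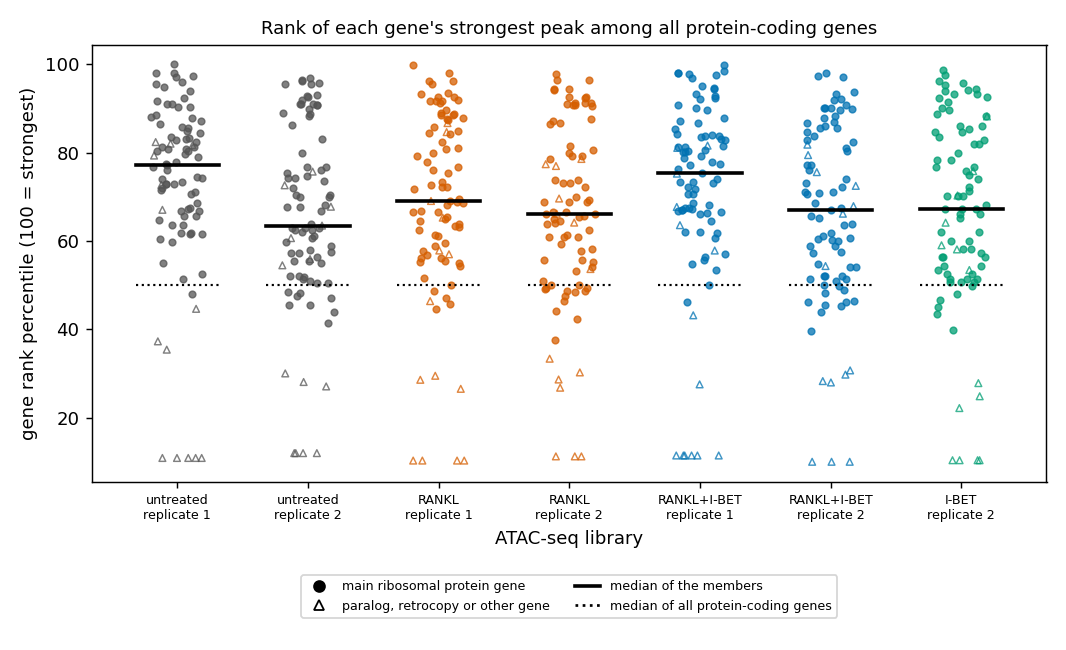
Gene rank percentile (vertical axis, 100 is the strongest) of each member in each of the 7 libraries (horizontal axis), with filled circles for main genes, open triangles for paralogs, retrocopies and other genes, a solid line for the members' median and a dotted line for the median of all protein-coding genes. Medians lie between 63.5 and 77.1 and are higher in the libraries numbered 1.

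The strongest peaks were wider than those of the median gene in every library. The members' median width was 1191 and 1753 bp in untreated replicates 1 and 2, 1489 and 1829.5 bp with RANKL, 1509 and 2699.5 bp with RANKL and I-BET, and 1399 bp with I-BET. Over all genes the medians were 1016 and 1309, 1209 and 1338, 1248 and 1619, and 1066.5 bp in the same order, so the ratio was 1.17 to 1.67. To set libraries side by side, a gene's width was divided by the library's median over all genes and put on a log2 scale. On that scale of relative width the members' median was 0.23 and 0.42, 0.30 and 0.45, 0.27 and 0.74, and 0.39. The highest value was in RANKL+I-BET replicate 2, the library with the implied pileup of 13.8, and the part of the pileup in it was not tested. Of the members, 38 were wider than the library's median in all 7 libraries, against 33.9% of genes open in all.

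Rpl23a, a large-subunit protein near the exit of the peptide tunnel, had the widest peaks by the median over libraries, with 3289 and 4878 bp untreated, 3695 and 4816 bp with RANKL, 3312 and 5073 bp with RANKL and I-BET, and 4522 bp with I-BET. Its peak was shared with Tlcd1 and Nek8. The gene body starts at 78180935 on chromosome 11, and the peak ended before it, at 78179224 to 78180803, in all libraries but RANKL+I-BET replicate 2. Rpl3, near the peptidyl transferase centre, had 847 and 3315 bp, 1207 and 3474 bp, 1477 and 6228 bp, and 3404 bp, which separates the libraries numbered 1 from those numbered 2. These are widths of different peaks. Libraries numbered 1 used a peak starting at 80082597 to 80083037 on chromosome 15, and those numbered 2 a peak starting at 80071463 to 80074251. Rpl7, Rps3a1 and Rpl3l had median widths of 2854, 2838 and 2822 bp. Peaks of over 10 kb were found in RANKL+I-BET replicate 2 alone, among them 10842 bp at Rpl13a and 10777 bp at Rpl18, where the other 6 libraries had 1489 to 2383 bp and 1011 to 2731 bp.

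**Figure D4:**
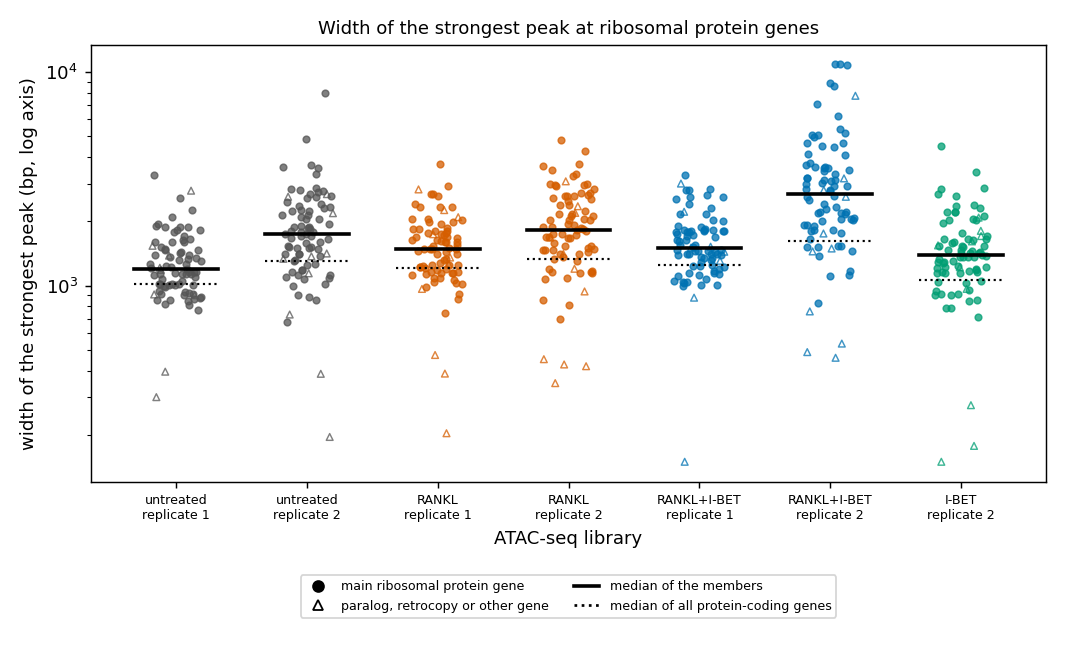
Width of the strongest peak (bp, log axis) at each member in each of the 7 libraries, with filled circles for main genes, open triangles for paralogs, retrocopies and other genes, a solid line for the members' median and a dotted line for the median of all protein-coding genes. The members' median is above that of all genes in each library, from 1191 bp in untreated replicate 1 to 2699.5 bp in RANKL+I-BET replicate 2.

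RANKL against untreated cells sets 4 h of the cytokine beside untreated cells listed at 0 h. The share of members open was higher by 1.15 percentage points, which is 1 gene, and by the same amount within each number (1.15 and 1.15; exact two-sided permutation p = 0.667). Relative width was higher by 0.05 on the log2 scale (0.07 between the libraries numbered 1 and 0.03 between those numbered 2; exact permutation p = 0.667). The median rank was -2.69 percentile points apart, with -8.06 between libraries numbered 1 and 2.68 between those numbered 2 (exact permutation p = 1). With 2 libraries against 2 the smallest p such a test can give is 0.333, and after Benjamini-Hochberg adjustment over the 9 tests of this kind every p was 1. Treated and untreated libraries did not differ beyond the spread between replicates in any of the 3 measures.

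Of the 82 members with a peak in all 4 libraries, 15 had a relative width that was higher in both RANKL libraries than in either untreated one (18.3%, against 17.2% of all genes), and 8 a lower one (9.76%, against 11.5%). For rank, 8 were higher (9.76%, against 11.7%) and 13 lower (15.9%, against 14.1%). These shares are close to the background and say nothing particular about the members.

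Rpl35, in the large subunit, had relative widths of 0.16 and 0.28 untreated and 0.47 and 1.68 with RANKL. Its strongest peak started at 39007618 on chromosome 2 in untreated replicate 1 and at 38996750 to 38997414 in all other libraries. It lay over the start of Rpl35 in no library and was shared with Arpc5l or Wdr38, so this difference is partly between different peaks. Rpl9 had -0.25 and -0.25 against 0.05 and 1.03, and Rps7 -0.14 and 0.07 against 0.60 and 0.61. In these 3 genes the groups did not overlap, and RANKL replicate 2 was the widest of the 4 for each. Rps18 was narrower with RANKL, at 0.94 and 1.46 against 0.35 and 0.92, as were Rpl19 (0.69 and 0.58 against -0.08 and 0.34) and Rpl37a (0.11 and 0.18 against -0.06 and -0.20).

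Rps29, a zinc-binding protein of the small subunit, ranked 86.5 and 90.9 untreated and 93.2 and 96.5 with RANKL. Rps27a had 67.6 and 68.2 against 76.7 and 70.1, and Rpl13 64.7 and 57.2 against 66.5 and 66.7. The largest differences were downward. Rpl7a, which hosts several small nucleolar RNAs, ranked 83.0 and 70.5 untreated and 62.4 and 66.7 with RANKL. Rpl18 had 87.8 and 74.6 against 66.5 and 73.1, and Rps16 82.4 and 62.0 against 61.2 and 61.0. For all 3 the gap came mostly from untreated replicate 1, and that between libraries numbered 2 was small.

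RANKL with I-BET against RANKL asks what BET inhibition adds to the cytokine. The share open differed by -1.15 percentage points (-2.30 and 0 within numbers 1 and 2, exact permutation p = 1), relative width by 0.13 on the log2 scale (-0.03 and 0.29, exact permutation p = 1) and the median rank by 3.64 percentile points (6.36 and 0.92, exact permutation p = 0.667). Of 81 members with a peak in all 4 libraries, 4 had a higher relative width in both (4.94%, against 10.1% of all genes), and 7 a lower one (8.64%, against 15.7%). In rank, 11 were higher (13.6%, against 8% of all genes) and 3 lower (3.70%, against 7.49%). With a 1 kb window 12.7% ranked higher, against 8.21% of all genes. With peaks at the gene start or end it was 11.9%, against 11.4%. These shares were not tested. When same-numbered libraries were compared with each other, 24.7% of the members were wider with I-BET, against 18.8% of all genes, so the lower share of wider members depends on how libraries are compared.

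Rps29 had relative widths of 0.42 and 0.38 with RANKL and 1.06 and 1.61 with I-BET added, the largest difference in width among the genes whose groups did not overlap. Its ranks went the other way, 93.2 and 96.5 against 92.2 and 91.9. Rpl19 was at -0.08 and 0.34 against 0.59 and 0.58, and Rps24 at -0.22 and -0.31 against 0.12 and 0.17. At both Rpl19 and Rps24 each group holds values of different peaks, since the strongest peak of replicate 1 was not that of replicate 2. For Rpl19 the values with I-BET are near those of untreated cells (0.69 and 0.58). Narrower with I-BET were Rpl7l1 (0.79 and 0.71 against 0.29 and 0.69), Rps27rt (0.53 and 0.33 against 0.27 and 0.12) and Rps21 (1.11 and 0.94 against 0.89 and 0.80). At Rpl7l1 the value of 0.29, from RANKL+I-BET replicate 1, is that of a different peak. It started at 46782053 on chromosome 17, against 46771939 to 46772259 in RANKL+I-BET replicate 2 and both RANKL libraries.

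Rpl7a ranked 62.4 and 66.7 with RANKL and 75.4 and 71.0 with I-BET added, between the RANKL and the untreated values for replicate 1. Rpl36 had 75.4 and 72.3 against 77.4 and 83.0, and Rps9 51.7 and 57.8 against 62.1 and 59.0. At Rpl7a and Rps9 the strongest peak of replicate 1 was again not that of replicate 2 in either group. Rpl27 ranked lower, with 91.9 and 91.3 against 89.5 and 88.2, as did Rpl14 with 91.8 and 90.9 against 87.9 and 90.2. The comparison with RANKL and that of RANKL with untreated cells share the RANKL libraries, so an opposite sign in them is not a separate observation.

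RANKL with I-BET against untreated cells gave a difference of 0 in the share open (-1.15 and 1.15 within numbers 1 and 2, exact permutation p = 1). Relative width differed by 0.18 on the log2 scale (0.04 and 0.32, exact permutation p = 0.667) and the median rank by 0.95 percentile points (-1.70 and 3.60, exact permutation p = 1). In relative width, 9 of 81 members were higher (11.1%, against 13.8% of all genes) and 6 lower (7.41%, against 12.2%). In rank, 5 were higher (6.17%, against 10.2%) and 7 lower (8.64%, against 11.2%). All 4 shares were below those of all genes, but this depends on the peaks used. With peaks at the gene start or end, 16.7% were wider (against 12.4% of all genes) and 10.6% narrower (against 14.3%). In that setting 15.2% ranked higher (against 12.7%) and 9.09% lower (against 6.31%). With the 1 kb window the share of wider members was 13.8%, against 13.5%, and the other shares stayed below those of all genes.

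Rps29 (0.53 and 0.20 untreated against 1.06 and 1.61), Rpl35 (0.16 and 0.28 against 0.44 and 1.52) and Rpl9 (-0.25 and -0.25 against -0.10 and 0.77) had wider peaks with both agents. At Rpl35 the value of untreated replicate 1 is again that of a different peak. Rpl36 was narrower (0.76 and 0.64 against 0.46 and 0.34), and so were Rpl23a (1.69 and 1.90 against 1.41 and 1.65) and Rps20 (0.17 and 0.02 against -0.21 and -0.08). The peak of Rpl23a is the one shared with Tlcd1 and Nek8. At Rpl36 the strongest peak started at 56610975 on chromosome 17 in untreated replicate 1 and at 56608479 to 56608763 in all other libraries. Higher ranks were found for Rps27a (67.6 and 68.2 against 78.8 and 71.2), Rps29 (86.5 and 90.9 against 92.2 and 91.9) and Rpl15 (94.8 and 95.8 against 96.9 and 97.4). Rpl29 ranked lower, with 60.4 and 56.4 against 55.7 and 45.5, followed by Rpl27 (91.7 and 95.5 against 89.5 and 88.2) and Rps13 (76.0 and 73.7 against 73.5 and 68.5).

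**Figure D5:**
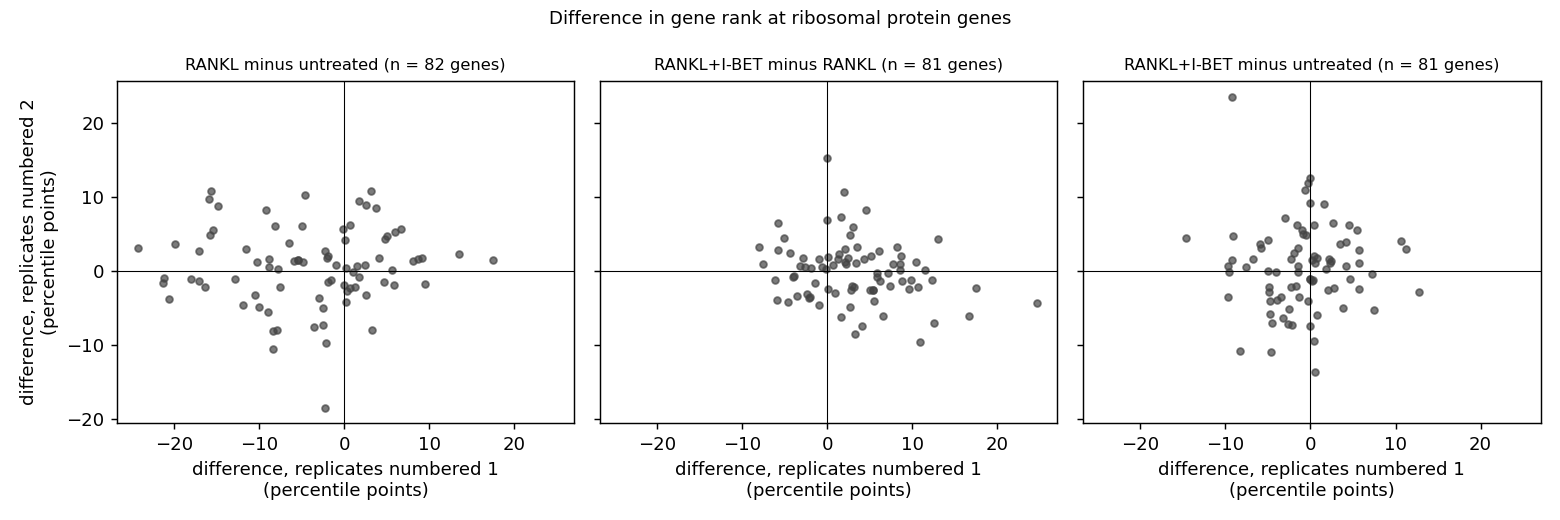
Difference in gene rank (percentile points) between groups at each member, for the libraries numbered 1 (horizontal axis) and numbered 2 (vertical axis), with 82, 81 and 81 genes in the 3 panels. Points lie in all 4 quadrants of every panel. The members' median ranks differ within numbers 1 and 2 by -8.06 and 2.68 for RANKL against untreated. For RANKL+I-BET they differ by 6.36 and 0.92 against RANKL, and by -1.70 and 3.60 against untreated.

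I-BET without RANKL had 1 library, so its values have no replicate and no test. It had 83 members open, a median width of 1399 bp, a relative width of 0.39 and a median rank of 67.2. These lie within the range of the other 6 libraries, and no member had a peak there and in neither untreated library.

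Genes that work with the members in translation were open as widely. The 7 ribosomal protein genes that the symbol rule misses (Rplp0, Rpsa and Rack1 among them) were open in all libraries, with median ranks of 71.5 to 84.0. Translation factors (40 of 40 open) had 72.4 to 82.2 and ribosome biogenesis genes (42 of 42 open) 68.2 to 80.7. The 78 mitochondrial ribosomal protein genes, whose products serve the ribosome of the mitochondrion, were also open throughout but ranked lower than these lists, with 63.6 to 67.9. That range lies within the 63.5 to 77.1 of the 87 members. In untreated replicate 2 the mitochondrial median (64.4) was above that of the members (63.5).

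With RANKL against untreated cells, 3 of 40 translation factors ranked higher and 6 lower without overlap between groups, 3 and 7 of 42 biogenesis genes, and 5 and 10 of 78 mitochondrial genes, where all genes gave 11.7% and 14.1%. With I-BET added to RANKL the counts were 6 and 1, 2 and 4, and 6 and 3 in the same order, where all genes gave 8% and 7.49%. In relative width, 3 translation factors were wider and 3 narrower with RANKL, 5 and 3 biogenesis genes, and 17 and 10 mitochondrial genes, where all genes gave 17.2% and 11.5%. None of the 7 genes outside the rule differed without overlap between RANKL and untreated cells in either measure.

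Among the main genes, promoters with and without an ETS site had nearly the same median of mean ranks, 70.7 (21 genes) and 71.4 (33 genes). With a TOP core it was 72.6 (24 genes) and without 69.8 (30 genes). Genes with an Sp1 site had 74.9 (31 genes) against 65.8 (23 genes). These are descriptions over genes, which are not replicates.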

How the data were processed

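Per the submitters' processing notes, reads were handled on mm10 with Bowtie2 and MACS2, besides cutadapt, FastQC, SAMtools, Picard and bedtools. Versions, settings and read counts are not given in the sources used here. The authors deposited a separate peak list for each library, without a pooled call. Each deposited line gives positions, a score, -log10 p and q values, and a fold, which is the pileup as a ratio to the local background. In all lists the deposited score was the whole part of 10 times the -log10 p. These values are the authors' own and served only to rank or filter peaks within 1 list. With 1 value per library and no reads, the number of libraries limits the precision, and a change of signal within a called peak is seen only through rank and width.

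Gene bodies came from a RefSeq table for GRCm38.p6 (the assembly of mm10) and promoters from the matching promoter table. No genome sequence was used. For each gene and library, the strongest peak (largest -log10 p) with its midpoint within 5 kb gave width and rank. Genes without a peak share the bottom ranks. Groups came from the labels. Each of 3 comparisons used an exact two-sided permutation test over library medians, and members whose groups did not overlap were counted beside all genes. The call rule was tested on simulated data. Members, lists and tests were chosen with earlier results of these data known. Genes named are the highest, lowest and widest, those lacking a peak, the 3 largest differences per comparison and direction, and members fixed by name; some are not reported here. Rps12, Rps23, Rpl4, Rpl35a and Rpl37rt stand outside that rule and were named after their values were seen. Alternatives were a 1 kb window, only peaks with -log10 q from 5 upward, all lists shortened to 117175 peaks, ranking by fold, any overlap of 1 bp, peaks at gene ends, width in bp, main genes only, the replicate block and leaving out each library. Python 3.11.15, numpy 2.4.6, pandas 2.3.3, scipy 1.17.1 and matplotlib 3.10.9 were used.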

Additional observations from a re-analysis of the deposited data

How the results depend on the processing

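With 2 libraries against 2 no test could pass a threshold, so the alternatives bear on directions and counts. Apart from leaving out libraries, 142 values kept their sign, or for counts stayed within 1.5 times, 28 moved and 4 reversed; the cause was not tested. The share open differed by -0.575 percentage points with a 1 kb window for RANKL against untreated and for RANKL+I-BET against untreated, where it was 1.72 with a -log10 q of at least 5 and -3.45 with peaks at the gene start or end. For RANKL+I-BET against RANKL it was 0 with the 1 kb window and with the stricter q, and -5.17 with peaks at the gene start or end. With main genes only, all open, it was 0 throughout. The rank difference of RANKL+I-BET against untreated became -0.420 with the 1 kb window, -0.303 with any overlap and -0.848 with peaks at the gene start or end, and that against RANKL 0.880 with the last. With main genes only, the rank difference of RANKL+I-BET against untreated was 0.328. Relative width for RANKL against untreated was 0.01 with peaks at the gene start or end and 0.19 with width in bp, which gave 0.29 for RANKL+I-BET against RANKL and 0.48 against untreated. With width in bp, members wider and narrower were 25 and 0 for RANKL against untreated (30.5% and 0%, against 27.4% and 4.10% of all genes), 11 and 0 for RANKL+I-BET against RANKL (13.6% and 0%, against 21.9% and 1.96%), and 24 and 0 for RANKL+I-BET against untreated (29.6% and 0%, against 36.6% and 0.684%). For RANKL+I-BET against RANKL, 9 were wider with the 1 kb window (11.4%, against 10.7%) and 10 with peaks at the gene start or end (14.9%, against 11.6%), where 1 ranked lower (1.49%, against 5.53%). For RANKL+I-BET against untreated, 10 ranked higher with peaks at the gene start or end (15.2%, against 12.7%).

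Same-numbered libraries deviated together over all genes (r of 0.228 to 0.331 for width and 0.564 to 0.771 for rank), but with 2 numbers, which the labels do not call batches, they were not taken as pairs. With the replicate block, 22 members were wider (26.8%, against 27.4% of all genes) and 16 narrower (19.5%, against 23.6%) for RANKL against untreated, where 20 ranked higher (24.4%, against 24.7%) and 23 lower (28.0%, against 29.3%). For RANKL+I-BET against RANKL, 20 were wider (24.7%, against 18.8%), 19 narrower (23.5%, against 32.9%), 26 higher (32.1%, against 23.8%) and 11 lower in rank (13.6%, against 23.5%). For RANKL+I-BET against untreated, 24 were wider (29.6%, against 24.0%), 16 narrower (19.8%, against 28.3%), 20 higher (24.7%, against 26.2%) and 24 lower in rank (29.6%, against 30.3%). The smallest p of such a block is 0.5, and the differences themselves did not move.

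Leaving out each library in turn gave differences of 0.575 to 1.72, -2.87 to 0.575 and -1.72 to 1.72 percentage points in the share open, in the order RANKL against untreated, then RANKL+I-BET against RANKL and against untreated. In relative width they were -0.045 to 0.15, -0.10 to 0.36 and -0.051 to 0.41, and in rank -9.50 to 4.12, -0.523 to 7.80 and -5.86 to 7.76. The sign of the width difference turned without RANKL replicate 2 (-0.02) or untreated replicate 1 (-0.045) in the first comparison, and without RANKL+I-BET replicate 2 in the others (-0.10 and -0.051). That of rank turned without untreated replicate 1 in the first (4.12), without RANKL+I-BET replicate 1 in the others (-0.523 and -3.21) and without untreated replicate 2 in the last (-5.86). The share open against RANKL turned without RANKL+I-BET replicate 1 (0.575). Members wider with 3 libraries were 20 to 35, 14 to 44 and 16 to 47. These are 24.4% to 42.7%, 17.3% to 53.0% and 19.8% to 57.3%, against 31.6% to 38.1%, 23.0% to 28.8% and 29.2% to 34.1% of all genes. Narrower were 13 to 28, 15 to 32 and 16 to 25 (15.9% to 34.1%, 18.5% to 39.5% and 19.5% to 30.9%), against 24.3% to 34.8%, 30.7% to 39.7% and 28.1% to 34.8%. Higher in rank were 14 to 34, 18 to 47 and 11 to 37 (17.1% to 41.5%, 21.7% to 58.0% and 13.6% to 45.7%), against 27.1% to 33.8%, 25.3% to 34.2% and 25.3% to 32.7%. Lower were 20 to 43, 12 to 29 and 14 to 38 (24.4% to 52.4%, 14.8% to 34.9% and 17.3% to 46.9%), against 30.2% to 39.5%, 26.6% to 31.3% and 26.1% to 38.2%.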
